A study of Mus musculus with 2 samples.

Results

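The genes described here were the interleukins, the tumor necrosis factor (TNF) superfamily and the receptors of both, measured in the prefrontal cortex (PFC) of mice with and without chronic mild stress (CMS). They were taken by mouse symbol, namely every symbol that begins with Il and a digit, with Tnfsf or with Tnfrsf, together with Tnf, Lta and Ltb. Of 120 such symbols in the RefSeq gene table, 115 had at least 1 probe, out of 37069 gene names on the arrays, and 81 of them were interleukin symbols and 34 TNF superfamily symbols. Il11ra2, Il12b, Il4i1b, Tnfsf13 and Tnfsf13os had no match.

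Male mice of the strain C57Bl/6 N sea, as the labels spell it (C57BL/6N in the paper), entered the study at 9 to 10 weeks of age. The CMS group was exposed to CMS for 4 weeks while the C group received no treatment. According to the paper, CMS mice were kept singly and the others in groups. Housing and the stressors therefore cannot be told apart. Total RNA of 7 mice per group, as the design text gives it, was mixed into 1 pool, and each pool was hybridized to 1 one-color Agilent array on the same slide. With 1 array per group there was no replicate of either condition, so no test was made, and how far mice of 1 group differ from each other is unknown. A pool of whole tissue also cannot tell fewer cells of a type from less RNA per cell.

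Interleukins and TNF superfamily proteins are short-range signals between cells. Interleukin receptors pair a ligand-specific chain with a shared chain and mostly act through Janus kinases and Stat factors or, in the IL-1 family, through MyD88, whereas TNF receptors recruit TRAF adaptors or death domain proteins and switch on NF-kappaB or cell death. In the healthy brain, microglia, astrocytes and neurons make small amounts of a subset of these ligands and carry many of the receptors, and most T cell cytokines are made by blood cells that are rare in the tissue.

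Every value given as a signal is the processed intensity of the gene's probe after both arrays were scaled to a mean of 2500, and the value after ± is the error that the scanner software attached to it, which covers error within an array and not that between mice. The log2 ratio is that of the CMS pool over the C pool. Where a probe had several spots, the SD of their log2 ratios was 0.14 over 335 probes. The lowest signal called well above background was 17.8 on the C array and 17.6 on the CMS array. A gene below that call on 1 array was given the higher of this floor and its own signal there. Its ratio is a bound where the floor was used, and a plain ratio of the signals where its own signal was higher. A gene below the call on both arrays was given no ratio.

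The tissue was checked with markers first. All 10 cortical neuron markers were measured in both pools, with a median log2 ratio of -0.02 and a summed signal of 224000 in C and 219000 in CMS. The 9 microglia and macrophage markers were also all measured, with a median of 0.05, as were the 6 markers each of astrocytes (-0.03), oligodendrocytes (-0.15) and brain endothelium (0.02). Among T cell markers, 3 of 7 were well above background on both arrays, namely Cd3e, Cd4 and Lck, and Cd3d, Cd3g, Cd8a and Cd8b1 were on neither. Among B cell markers, Ms4a1 and Pax5 were on neither. Median ratios of erythroid, neutrophil and liver cell markers were higher. All 12 hepatocyte markers were above 1.5-fold higher there, 10 of them above 2-fold, with a median log2 ratio of 3.0 and a summed signal of 20500 in C and 80500 in CMS, and 3 of 7 measured markers of Kupffer cells and liver sinusoidal endothelium were above 2-fold higher, with sums of 425 and 650. The 5 measured erythroid markers had a median of 0.47 and summed to 38000 and 50100, and the 7 neutrophil markers had a median of 0.68 and summed to 3560 and 3780. Over the 5 neutrophil markers measured on both arrays the median was 0.58. Most of the neutrophil sum was Elane, the 1 of these 5 that was lower in CMS, at 2800 and 2290 (-0.29). The part of these cell types in the results below was not tested.

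Of the 115 genes, 63 were well above background on both arrays (54.8%), against 75.3% of all gene names with a RefSeq symbol and 68.6% of all gene names. Another 6 were measured in the C pool only (5.22%, against 1.89% of all gene names and 1.41% of those with a RefSeq symbol). Their C signals ran from 21.3 to 38.9, near the limit of 17.8, so these calls are uncertain. In the CMS pool only there were 0 by the probes used (2.66% and 2.09%), and in neither pool 46 (40.0%, against 26.8% and 21.2%). Receptors were measured more widely than ligands, with 41 of 58 receptor genes well above background on both arrays (70.7%) and 19 of 50 ligand genes (38.0%). The split was widest in the IL-17 family, where all 5 receptors were measured on both arrays and 1 of 6 ligands, Il17d. In the family that signals through the common gamma chain, together with IL-13, 0 of 7 ligands and 5 of 10 receptor chains were.

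No gene of the set was above 2-fold higher on the CMS array, a call that 1.99% of all 27117 gene names with a ratio met. A single gene, Il5, was below 0.5 times, a call that 0.59% of all gene names met. Past 1.5-fold in either direction were 6 of the 69 genes with a ratio, against 5.80% of all gene names. Of these, 2 were higher (3.71% of all gene names) and 4 lower (2.09%). The median log2 ratio of the 69 was -0.06, beside -0.03 over all gene names. Among the 63 genes measured on both arrays, 46 (73.0%) lay within 0.2 of zero on the log2 scale. The share was 76.8% of all gene names measured on both and 80% of those with a RefSeq symbol. The range from the 5th to the 95th percentile ran from -0.43 to 0.23 in the set and from -0.34 to 0.34 over all gene names. The median and the middle of the distribution thus lay near those of all gene names, whereas detection was less frequent in the set.

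**Figure D1:**
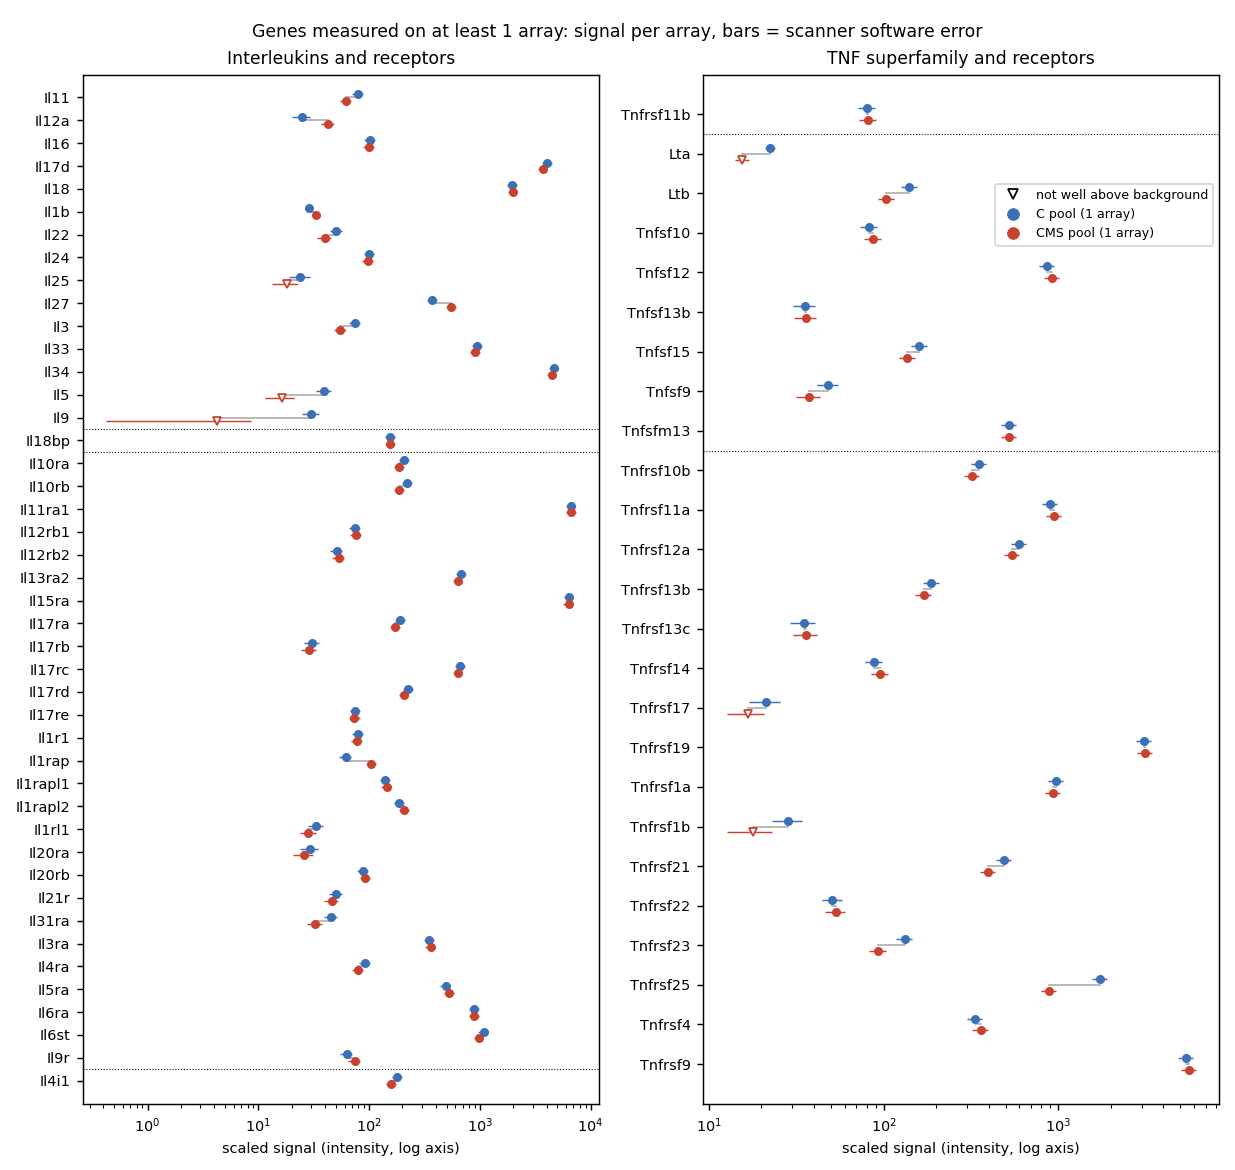
Scaled signal (intensity, log axis) of the 69 genes with a ratio on the C array (blue) and the CMS array (red), with bars for the scanner software's error and open triangles where a probe was not well above background. Dotted lines separate ligands, natural inhibitors, receptors and others; the pairs lie close together for most genes, and Tnfrsf25, Il5, Il9, Il12a and Il1rap are among the widest apart.

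Of the classical inflammatory ligands, Tnf, Il6 and Il1a were not well above background in either pool, and Il1b was close to the limit. Tnf, the founding member of the TNF superfamily, was printed as 10 spots per array, and its mean signal was 5.57 ± 2.66 in C (SD over 10 spots) and 4.30 ± 0.473 in CMS (SD over 9 spots), with 0 spots well above background on either array. Il6, an acute inflammatory cytokine that signals through gp130, had signals of 8.48 and 4.15 as means of 2 spots, again with 0 well above background. Il10, an anti-inflammatory cytokine, had 10.3 ± 5.38 and 6.77 ± 3.30 over 10 spots each, and Il4, the defining cytokine of type 2 immunity, had 7.46 ± 2.50 over 9 spots and 8.99 ± 3.27 over 10, all of them not well above background. Il1a, its natural antagonist Il1rn, the T cell cytokines Il2 and Il17a, and Il15, which sustains natural killer cells, were likewise not well above background on either array, so no ratio was taken for these genes. The same held for the lymphoid cytokines Il7, Il13, Il17f and Il21, for Il17b and Il17c, for Il19, Il20, Il23a and Il31, and for the IL-1 relatives Il1f5, Il1f6, Il1f8, Il1f9 and Il1f10. Among the TNF superfamily ligands it held for Tnfsf4, Tnfsf8, Tnfsf11, Tnfsf14 and Tnfsf18. Most of these ligands are known from activated lymphocytes, myeloid cells or epithelia. The receptors not well above background in either pool included chains of the IL-2, IL-7 and IL-18 receptors (Il2ra, Il2rb, Il7r, Il18r1, Il18rap), Il1rl2, Il22ra1, Il23r, Tnfrsf8, Tnfrsf18 and Tnfrsf26. The natural inhibitor Il22ra2 and the antisense transcript Il1bos were not well above background in either pool either.

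Il1b, the main secreted IL-1 ligand, was just above the limit. Its 10 spots ran from 22.5 to 37.2 with a median of 28.6 in C and from 22.4 to 39.5 with a median of 34.0 in CMS, and the scanner flagged each of them as above background. The means were 28.7 ± 4.75 and 33.0 ± 5.11 (SD over spots), a log2 ratio of 0.20, or 0.03 without scaling. The spots of the 2 arrays overlapped over most of their range, with CMS higher at 7 positions and lower at 3, and the log2 ratios of single positions had an SD of 0.44. This SD is larger than the ratio itself, and it shows how far a single spot can move at this brightness.

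Lta, which forms soluble lymphotoxin alpha, had the opposite order. Its 10 spots ran from 14.6 to 32.7 with a median of 21.8 in C and from 4.46 to 20.4 with a median of 16.8 in CMS. Well above background were 7 of 10 spots on the C array and 2 of 10 on the CMS array, and CMS was lower at 9 of 10 positions. Lta was therefore measured in the C pool only, and the mean over spots, 22.4 ± 5.45, was at least 1.27-fold that of the CMS pool, 15.5 ± 4.81.

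**Figure D2:**
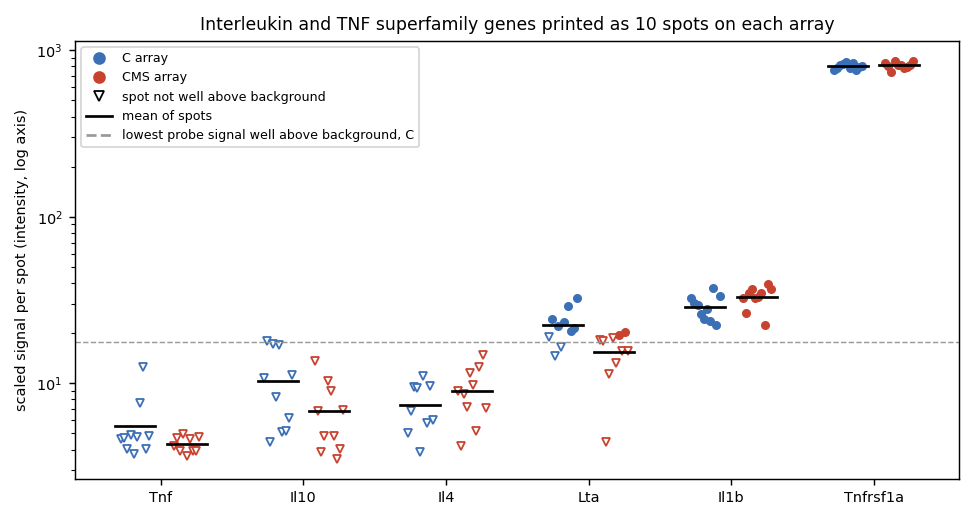
Scaled signal (intensity, log axis) of each spot for the 6 genes printed as 10 spots, C array blue and CMS array red, with open triangles for spots not well above background and black lines for the mean of spots; spots marked as outliers by the scanner software are left out. Tnf, Il10 and Il4 have no spot well above background, Il1b lies just above the dashed limit of 17.8 with overlapping spots, and the Tnfrsf1a spots of both arrays lie between 742 and 867.

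Several interleukins that brain cells are known to make had signals far above the limit, and they were nearly level between the pools. Il34, a ligand of the Csf1 receptor that cortical neurons make and that maintains microglia, had a signal of 4640 ± 464 in C and 4460 ± 446 in CMS (log2 ratio -0.06). Il33, a nuclear alarmin of glial cells, had 950 ± 95.1 and 909 ± 91.0 (-0.06). Il18, which is released after cleavage by caspase-1, had 1960 ± 196 and 1980 ± 198 (0.02), and its secreted inhibitor Il18bp had 156 ± 16.0 and 155 ± 15.9 (-0.01). The values of each of these genes lay within the scanner error of each other. Il16, a chemoattractant for CD4+ cells with a neuronal precursor form, was at 102 ± 11.2 and 99.8 ± 11.0 (-0.03). Il17d, a distant relative of IL-17A, had log2 ratios of -0.14 and 0.06 by its 2 probes, and Il24, an IL-10 relative, was at -0.04. Il25, the type 2 member of the IL-17 family, was measured in C only, at 24 ± 5.07 against 18 ± 4.61.

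Higher ratios were found for 2 ligand subunits of the IL-12 family. Il27, which encodes the p28 subunit of IL-27, had a signal of 369 ± 37.1 in C and 554 ± 55.5 in CMS, a log2 ratio of 0.58 with a scanner error of 0.20, and it lay between 0.41 and 0.60 under all alternatives. Il12a, the p35 subunit shared by IL-12 and IL-35, had 24.7 ± 4.64 and 42.9 ± 5.76, a log2 ratio of 0.79 with an error of 0.33. The Il12a probe is a single spot near the limit on the C array, and with normexp background correction and quantile normalization its ratio was 0.30. The receptor chains of the 2 cytokines did not share the difference, since Il12rb1 and Il12rb2 had log2 ratios of 0.02 and 0.05, Il27ra was not well above background, and Il6st (gp130, the shared chain of the IL-6 family) was at -0.15. Ebi3, the partner subunit of IL-27, was at 496 ± 49.8 and 452 ± 45.4 (-0.14).

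Lower ratios among interleukin ligands were found for Il5, Il9, Il3, Il11 and Il22. Il5, the growth and survival factor of eosinophils, had a signal of 38.9 ± 6.04 in C and was not well above background in CMS at 16.2 ± 4.72, so the C signal was at least 2.21-fold that of CMS. Il9, a growth factor of mast cells, had 29.8 ± 5.16 in C and 4.26 ± 4.27 in CMS, at least 1.69-fold lower in CMS. Both were single spots within a short distance of the floor in the C pool, and their bounds with normexp correction and quantile normalization were -0.48 and -0.40 on the log2 scale. Il3, which supports blood progenitors, was at 74.2 ± 8.46 and 55 ± 6.77 (-0.43), Il11, a gp130 ligand, at 79.1 ± 8.95 and 61.6 ± 7.35 (-0.36), and Il22, which acts on epithelial cells, at 50.6 ± 6.51 and 39.7 ± 5.57 (-0.35). Mast cell and basophil markers stood beside the Il5 and Il9 values, with 1 of 5 measured on both arrays, Mcpt4 in C only, Cpa3, Cma1 and Fcer1a in neither pool, and summed signals of 296 and 264. Their part was not tested.

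Among the IL-1 receptor genes, Il1rap stood apart by 1 of its 2 probes. Il1rap is the gene of the accessory chain that the receptors of IL-1, IL-33 and IL-36 share. Its probe for the transcript NM_134103 had a signal of 61.5 ± 7.68 in C and 105 ± 11.5 in CMS (log2 ratio 0.77, error 0.24). Its probe for the transcript NM_008364 gave 6.35 ± 4.39 and 4.2 ± 4.21, and was detected in neither pool. The difference thus rests on 1 probe of 1 transcript form, and whether that form encodes the receptor chain was not tested. With normexp correction and quantile normalization the ratio was 0.43, which is under 1.5-fold. The binding chain Il1r1 was at 79.6 ± 9.11 and 77.3 ± 8.86 (-0.04), and the decoy receptor Il1r2 was not well above background. Il1rl1, the IL-33 receptor, had 33.0 ± 5.01 and 28.3 ± 4.62 (-0.22) by the probe used, and its other probes were not well above background in either pool. Il1rapl1, a synaptic adhesion protein of neurons in spite of its name, had log2 ratios of 0.04 and 0.05 by its 2 probes, and its relative Il1rapl2 had 0.14.

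The other interleukin receptors varied little. Il6ra, the ligand-binding chain for IL-6, was at 889 ± 89.0 and 894 ± 89.5 (0.01), and Il11ra1 at 6620 ± 662 and 6660 ± 666 (0.01). By the probes used, the 5 IL-17 receptors had log2 ratios from -0.17 (Il17ra, the common chain) to -0.03 (Il17re), with Il17rd, an inhibitor of fibroblast growth factor signalling, at -0.13. Il10rb, the chain shared by IL-10 and IL-22 receptors, was at 220 ± 22.4 and 187 ± 19.2 (-0.23). Il4ra had log2 ratios of -0.21 and -0.31 by its 2 probes, and Il5ra was at 490 ± 49.2 and 526 ± 52.9 (0.10). Il9r was at 62.8 ± 7.95 and 74.0 ± 8.91 (0.24) by the probe used, and its other probe was not well above background in either pool. The receptor chains for IL-5 and IL-9 thus lay on the other side of zero from their ligands, each by no more than its scanner error, and without scaling Il5ra was at -0.07. Il13ra1 and the common gamma chain Il2rg were not well above background. The lowest interleukin receptor ratio was that of Il31ra, 45.5 ± 5.99 and 32.5 ± 5.02 (-0.49), whose second probe was not well above background and whose ratio with normexp correction and quantile normalization was -0.09, above Il10rb (-0.31) and Il17ra (-0.21). Of the chains not named so far, Il10ra, Il13ra2, Il15ra, Il17rb, Il17rc, Il20ra, Il20rb, Il21r and Il3ra had log2 ratios from -0.18 to 0.06 by the probes used. The second probes of Il15ra and Il17rc were at -0.28 and -0.23. Il4i1, an amino acid oxidase named for its induction by IL-4, was at 178 ± 18.3 and 158 ± 16.3 (-0.17).

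**Figure D3:**
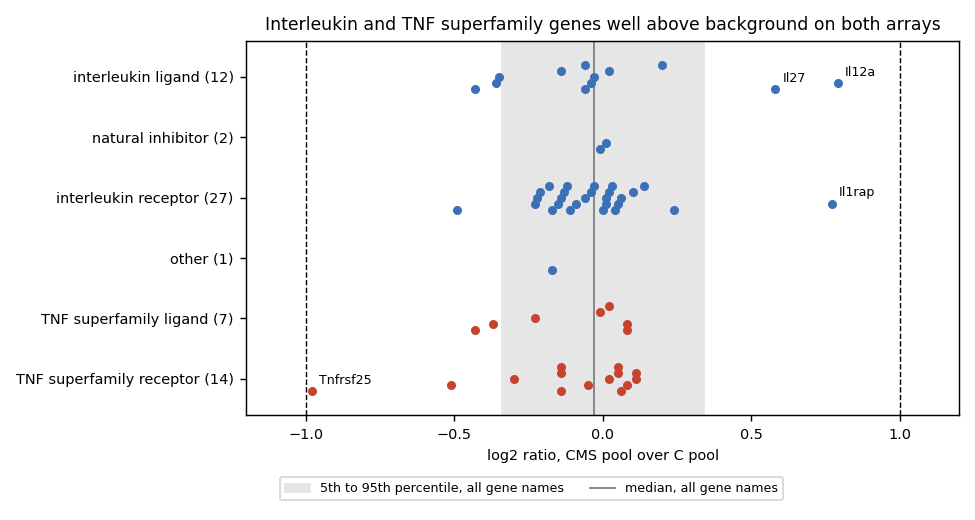
Log2 ratio of CMS over C for the 63 genes measured on both arrays, by role, with interleukin genes in blue and TNF superfamily genes in red; the gray band is the 5th to 95th percentile of all gene names (-0.34 to 0.34), the gray line their median and the dashed lines 2-fold. Il12a, Il1rap and Il27 lie to the right of the band, and Tnfrsf25 lies farthest to the left at -0.98.

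The largest difference between 2 measured signals in the set was that of Tnfrsf25. Tnfrsf25, death receptor 3, is a TNF receptor with a death domain that binds the ligand TL1A and is best known from T cells. Its signal was 1730 ± 173 in C and 882 ± 88.3 in CMS, a log2 ratio of -0.98 with a scanner error of 0.20, which put CMS 1.97-fold lower. Of 25433 gene names measured on both arrays, 50 (0.197%) had a ratio as low. Because Tnfrsf25 was singled out as the lowest of the set measured on both arrays, this share gives a rank and not a probability. The ratio stayed between -1.15 and -0.85 under all alternatives. The gene has 1 probe of 1 spot, so no second probe could be set beside it. Its ligand, Tnfsf15 (TL1A), was at 160 ± 16.5 and 137 ± 14.2 (-0.23). Of the T cell markers, Cd4 was at -0.15, Lck at -0.19 and Cd3e at 0.10, with a summed signal over the list of 8030 in C and 7460 in CMS, and their part was not tested.

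Tnfrsf1a, Tnfrsf21 and Tnfrsf10b, which also carry a death domain, differed less. Tnfrsf1a, the main TNF receptor of most cells, has a probe of 10 spots, and these ran from 758 to 850 in C and from 742 to 867 in CMS. Their means were 804 ± 30.5 and 814 ± 37.7 (SD over spots), a log2 ratio of 0.02, and the brighter second probe gave -0.05. This was the most precisely measured gene of the set, and its spots overlapped throughout. Tnfrsf21, death receptor 6, which neurons express, was at 487 ± 48.9 and 395 ± 39.7 (-0.30), and Tnfrsf10b, the TRAIL death receptor, at 352 ± 35.6 and 320 ± 32.4 (-0.14).

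Among the other TNF superfamily receptors, several were level between the pools, some were measured in C only and some had probes that disagreed. Tnfrsf1b, the second TNF receptor, found on microglia and blood cells, had 28.5 ± 5.52 in C and was not well above background in CMS at 17.8 ± 5.07. The CMS signal was 1.61-fold lower, a log2 ratio of -0.68 with a scanner error of 0.50. With normexp correction and quantile normalization its log2 ratio was -0.18. Tnfrsf19 (TROY), a receptor of neural progenitors and astrocytes, was at 3100 ± 310 and 3140 ± 314 (0.02). Tnfrsf12a, the receptor of TWEAK, was at 597 ± 59.8 and 541 ± 54.2 (-0.14), and the decoy receptor osteoprotegerin, Tnfrsf11b, at 80.9 ± 9.06 and 81.7 ± 9.13 (0.01). Tnfrsf4 (OX40), a costimulatory receptor of T cells, and Tnfrsf14 (HVEM) had log2 ratios of 0.11 each. Tnfrsf23, a mouse decoy receptor for TRAIL, had 132 ± 14.1 and 93.2 ± 10.5 (-0.51) by its brighter probe, whereas its other probe was measured in CMS only, at 25.5 ± 4.35 against 4.27 ± 3.63, so that the gene has no settled direction. Its neighbor in the family Tnfrsf22 had 0.06 by one probe, and the other was measured in C only, with a bound of -0.87 on the log2 scale. The receptors of BAFF and its relative also had unsettled ratios. Tnfrsf13b (TACI) had log2 ratios of -0.14 and -0.61 by its 2 probes. Tnfrsf13c (BAFF receptor) had 0.05 by one probe and -0.55 by the other, which was measured in C only. Tnfrsf17 (BCMA) was measured in C only, at 21.3 ± 4.32 against 16.7 ± 4.03. Tnfrsf11a (RANK) was at 895 ± 89.6 and 945 ± 94.5 (0.08), and Tnfrsf9 (4-1BB) at 5390 ± 539 and 5580 ± 558 (0.05), although its second probe was not well above background. In the set as a whole, 25 genes had several probes, and in 11 of them the probes differed in whether they were well above background.

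Among the TNF superfamily ligands, Ltb and Tnfsf9 had the lowest ratios. Ltb, the membrane anchor of lymphotoxin, was at 140 ± 14.6 and 104 ± 11.1 (-0.43), and Tnfsf9, the 4-1BB ligand of antigen-presenting cells, at 48.1 ± 6.55 and 37.3 ± 5.81 (-0.37). With Lta in C only, both lymphotoxin genes thus had the lower signal in CMS. Tnfsf12 (TWEAK) was at 864 ± 86.5 and 916 ± 91.6 (0.08), Tnfsf10 (TRAIL) at 82.5 ± 9.20 and 87.4 ± 9.60 (0.08), and Tnfsf13b (BAFF), the B cell survival factor, at 35.5 ± 5.05 and 35.9 ± 5.06 (0.02). The TWEAK, TRAIL and BAFF values differed by less than their scanner errors. Tnfsfm13, a symbol for transcripts that join Tnfsf12 with its neighbor, was at -0.01. The second probes of Tnfsf12 and Tnfsfm13 gave 0.19 and 0.16, and by the probes used no TNF superfamily ligand measured on both arrays lay above 0.08.

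Beside the ratios, the promoters of the set were searched for the letters GGG, any 2 letters and then TTTCC, a simple spelling of NF-kappaB sites, since NF-kappaB is the transcription factor that many of these receptors switch on. This spelling was 1 of 4 patterns tried, with the ratios known. Both strands of the 250 bases before each start were read, from the RefSeq promoter windows of GRCm38.p6. Of 91 genes of the set with a window, 9 (9.89%) held the letters, against 1.65% of all 27025 genes with a window. With a purine required as the fourth letter 4 genes matched (4.40%, against 0.829% of all), and with GGG, a purine, any 2 letters, 2 pyrimidines and CC 10 genes matched (11.0%, against 8.23%), so the size of the contrast depends on the spelling. The letters CAAAG followed by TCCA, an HNF4 pattern, were found in 0 of the 91 genes and in 0.451% of all. With a share this low over all genes, a count of 0 among 91 cannot be read as a contrast. The 9 were Il16, Il17rc, Il1rn, Il23r, Il6, Il9, Ltb, Tnfrsf25 and Tnfrsf9. Their log2 ratios where measured were -0.03 for Il16, -0.06 for Il17rc, -0.43 for Ltb, -0.98 for Tnfrsf25, 0.05 for Tnfrsf9 and a bound of -0.76 for Il9, and Il1rn, Il23r and Il6 were not well above background. A match is a description of the letters and not of a site that is bound. The sequences of 3 genes are printed 5′ to 3′ on the strand of the gene with the matching letters in capitals, namely Il6 (chr5:30012864-30013113, plus strand) as the classical NF-kappaB target, and Ltb (chr17:35194257-35194506, plus strand) and Tnfrsf25 (chr4:152115684-152115933, plus strand) as those with the lowest ratios among the genes of the 9 measured on both arrays. In Il6 the match began 44 bases before the start, in Ltb 87 bases and in Tnfrsf25 218 bases, on the opposite strand in the last 2 genes.
Il6: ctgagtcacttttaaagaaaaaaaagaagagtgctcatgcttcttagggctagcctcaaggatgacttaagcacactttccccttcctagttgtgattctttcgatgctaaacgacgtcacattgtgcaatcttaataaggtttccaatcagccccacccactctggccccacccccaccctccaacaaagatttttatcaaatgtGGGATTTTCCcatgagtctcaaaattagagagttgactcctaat
Ltb: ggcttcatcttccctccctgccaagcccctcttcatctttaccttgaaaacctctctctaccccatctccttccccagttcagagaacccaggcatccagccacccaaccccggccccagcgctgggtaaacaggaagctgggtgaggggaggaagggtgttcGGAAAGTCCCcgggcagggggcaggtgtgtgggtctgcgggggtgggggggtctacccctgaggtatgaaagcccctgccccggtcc
Tnfrsf25: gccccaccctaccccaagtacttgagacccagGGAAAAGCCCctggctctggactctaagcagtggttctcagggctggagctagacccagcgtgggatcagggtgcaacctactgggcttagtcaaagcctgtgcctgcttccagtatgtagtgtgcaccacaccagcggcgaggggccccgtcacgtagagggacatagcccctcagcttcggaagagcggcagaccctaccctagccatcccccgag

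Related genes outside the symbol rule were described from 8 fixed lists of 103 ligands, receptors and signalling genes. Of the 103, 90 were measured on both arrays and 93 had a ratio, with a median log2 ratio of -0.05. Of the 93, 2 were above 2-fold higher, a call that 1.99% of all gene names with a ratio met. Below 0.5 times were 0, against 0.59% of all gene names. The 2 genes were Eda2r and Cntf. Eda2r, the TNF receptor family member that binds ectodysplasin A2, was not well above background in C at 4.50 ± 4.51 and had 127 ± 13.5 in CMS, at least 7.16-fold higher, but its other probe was not well above background on either array. Cntf, the ciliary neurotrophic factor of astrocytes, a gp130 cytokine, was at 104 ± 11.5 and 229 ± 23.4 by the probe used (1.14), whereas its other probe was at 150 ± 15.6 and 158 ± 16.4 (0.08). Both calls therefore rested on 1 of 2 probes that disagreed, and the Cntf ratio was 0.96 without scaling and 0.08 with normexp correction and quantile normalization. Lifr, the receptor chain for leukemia inhibitory factor, was at 0.13 by the probe used and at 0.15 and 1.84 by its other probes.

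The intracellular pathways had small ratios. The 22 Jak-Stat genes were all measured, with a median log2 ratio of -0.04, and the lowest were the feedback inhibitors Socs6, at 61.2 ± 7.43 and 41.5 ± 5.89 (-0.56), and Socs3, at 378 ± 38.1 and 267 ± 27.1 (-0.50). In the TNF receptor list the median was -0.07, and the lowest gene was Map3k14, the kinase of the alternative NF-kappaB route, at 284 ± 28.7 and 195 ± 20 (-0.54). In the NF-kappaB list the median was -0.13, with Nfkb2 (-0.40), Nfkb1 (-0.37) and the inhibitor Nfkbia (-0.33) lowest and Bcl3 (0.37) highest. The 13 genes of IL-1 and Toll receptor signalling had a median of 0.01. In the cytokine maturation list, which holds the enzymes that process IL-1 family and TNF precursors, the median was 0.12, with Casp1 at 388 ± 39.0 and 419 ± 42.1 (0.11). Nlrp3, the inflammasome sensor, had a log2 ratio of 0.27 by one probe and was measured in C only by the other, with a log2 ratio of -0.66. Of these signalling genes, 93 probes matched by RefSeq accession were measured in both pools, and 0 of the 93 passed 1.5-fold. The share over all gene names with a ratio was 5.80%, but it counts genes and includes those measured on 1 array. Another 3 signalling probes were measured in 1 pool, the Nlrp3 probe at -0.66 among them. Probes without such a match were not counted. The paper lists Traf6 as more than 2-fold lower in CMS, whereas the Traf6 probe matched here was at 89 ± 9.87 and 101 ± 10.9 (0.18). The reason for this difference was not tested.

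**Figure D4:**
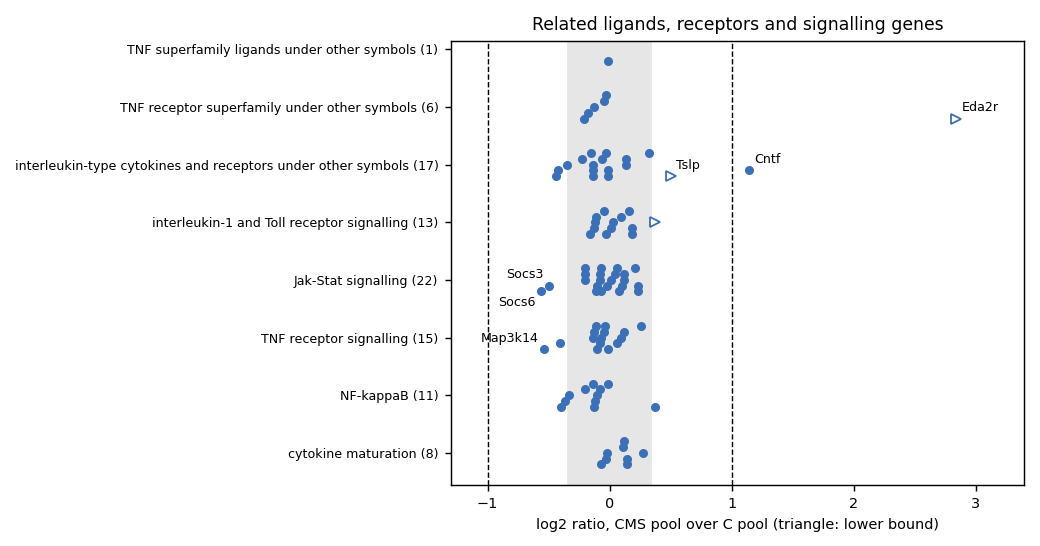
Log2 ratio of CMS over C for the genes of the 8 related lists that had a ratio, with the number of genes in parentheses, open triangles for lower bounds, dashed lines at 2-fold and the gray band as the 5th to 95th percentile of all gene names. Eda2r (2.84) and Cntf (1.14) are the genes past 2-fold, and Socs6, Socs3 and Map3k14 lie lowest.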

How the data were processed

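Pooled PFC RNA of each group was hybridized to 1 one-color Agilent array, and the 2 arrays shared 1 slide. The authors deposited the scanner output of Agilent Feature Extraction 10.10.1.1, per the labels, in which each spot has a processed signal intensity on a linear scale that is background-subtracted and not scaled between arrays. They also deposited a table of scaled intensities, used here as an alternative. The scanner files name probes by accession, so RefSeq accessions without versions were matched to symbols through the gene table of GRCm38.p6, whose coordinates were not used because the array annotation follows another build. From the deposited intensities, control and outlier spots were left out, spots of a probe were averaged, arrays were scaled to a mean of 2500 as in the methods, floors were set for dim probes, and log2 ratios were taken. Detection of a probe required the scanner's flag on at least 0.5 of its spots. For genes with several probes the brightest probe with a ratio was used.

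Of the spots, 65.2% (C) and 65.9% (CMS) were well above background. The number of arrays limits the precision, and without replicates no test was made, and neither array could be left out. The genes named are those past 2-fold, those in 1 pool with a ratio or bound of at least 1.5-fold, and the 10 highest and 10 lowest ratios among genes measured on both arrays. Also named are cytokines and receptors chosen as best known in brain or discussed by the study, and genes of the related lists past 2-fold. The others were named after their values were seen, to complete a family. The genes and lists were chosen with earlier results of these data known. Alternatives were other scalings (75th percentile, median, 2% trimmed mean, none), quantile normalization, normexp (offset 50, on median spot and background intensities) before quantile normalization, the deposited table, no floor, other detection filters, outlier spots kept and the mean of all probes. The ratio step was tested on simulated data. Python 3.11.15, numpy 2.4.6, pandas 2.3.3, R 4.3.3 and limma 3.58.1 were used.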

Additional observations from a re-analysis of the deposited data

How the results depend on the processing

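No paired analysis was possible because each group had 1 array, and no array could be left out. The count of genes above 2-fold higher, 0, became 7 with no filter on detection and was 0 under the other alternatives. The count below 0.5 times, 1, became 2 with median scaling, with no scaling and with no floor, 0 with normexp and quantile normalization and when genes measured on 1 array were left out, and 4 with no filter. The count past 1.5-fold, added after the data were seen, went from 6 to 11 with no scaling, 1 with normexp and quantile normalization, 3 when genes measured on 1 array were left out and 22 with no filter. The median log2 ratio, -0.06, was -0.09 with median scaling, -0.23 with no scaling, and -0.03 both without the filter and with normexp and quantile normalization. Without scaling, the median of all gene names was -0.20 in place of -0.03, so log2 ratios near zero lie below zero on that scale. Of the log2 ratios of single genes recomputed under the alternatives, 481 moved by less than the SD between spots and 68 by more, 46 of these with no scaling and 13 with normexp. Under the mean of all probes the log2 ratio of Tnfrsf23 was 0 and that of Cntf 0.61. Where the cause of a move is not given by the alternative itself, the cause was not tested. The median signal was 3.64 times the detection limit in C and 3.76 times in CMS, so genes near the limit, Il5, Il9, Il12a and Tnfrsf1b among them, are the least certain.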
